A study of Mus musculus with 27 samples.

Results

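The late change of the fetal brain transcriptome, from gestational day (d) 15 to d17, was compared between Cav1-null and C57BL/6J mice, gene by gene, as an interaction of strain and day. Of the 27 fetal brain libraries of the series, the 12 libraries of these 2 strains on d15 and d17 were used, with 3 libraries in each of the 4 groups, and of the 55416 genes with read counts 21431 had enough reads to be tested. The interaction value of a gene is its log2 fold change (d17 over d15) in Cav1-null mice minus its log2 fold change in C57BL/6J mice, so that a positive value means a larger rise or a smaller fall in Cav1-null mice. In all, 54 genes passed the test, which is 0.252% of the genes tested.

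The mice were C57BL/6J, an inbred strain that the study takes as its long-lived one, and B6.Cg-Cav1tm1Mls/J, called Cav1-null, a congenic strain that carries a targeted mutation of Cav1 on the C57BL/6J background and is taken as short-lived. Mice of both strains came from the Jackson Laboratory, the day of the vaginal plug was counted as day 1, and every one of the 12 fetuses is labelled female. Poly(A) RNA of the whole brain of a fetus was sequenced in each library. The labels give no litter or dam, so the p-values measure only the spread between these libraries, which may be technical. AKR/J, the other short-lived strain of the series, served only for values set beside those of the genes found here and in an alternative fit of all 27 libraries.

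The study places the height of neurogenesis in the fetal mouse brain on d17. Between d15 and d17 progenitors leave the cell cycle, and axons and synapses form. Cav1 encodes caveolin-1, the coat protein of caveolae, which are small pits of the plasma membrane found mainly in endothelial and connective tissue cells. Late in gestation the blood that fills the brain vessels also changes, because red cells made in the fetal liver replace the primitive red cells of the yolk sac.

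The targeted gene followed the labels. Cav1 was at 19.4, 12.6 and 18.8 CPM (read counts scaled to library size with trimmed mean of M-values factors) in the 3 C57BL/6J libraries of d15 and at 33.7, 34.1 and 42 CPM in those of d17. In Cav1-null mice it was at 0, 0.203 and 0.0707 CPM on d15 and at 0.271, 0.389 and 0.527 CPM on d17, below every C57BL/6J library on both days. Its interaction value was 0.93 ± 0.66 (SE, adjusted p = 0.416). The Cav1-null part of this value rests on levels of at most 0.527 CPM, so its size is uncertain. Scaled to library size alone, Xist was between 2376 and 6291 CPM in the 12 libraries, and no gene of the Y chromosome that was checked passed 0.139 CPM. With trimmed mean of M-values factors the cortical projection neuron list summed to between 2293 and 5075 CPM.

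The 12 libraries held between 26846313 and 39759702 reads on genes, and they did not fall into 4 even groups. On the first principal component of log2 CPM, with 44.6% of the variance, the C57BL/6J libraries of d15 lay between -97.9 and -81.2, whereas the 6 Cav1-null libraries of both days lay between 27.9 and 56.1. The C57BL/6J libraries of d17 were spread over most of this range, with replicate 1 at -39.99, replicate 3 at 4.06 and replicate 2 at 49.8. Other measures followed a similar order. Mitochondrial genes took 1.21% to 1.31% of the reads in C57BL/6J on d15, then 1.53%, 4.43% and 2.47% in replicates 1, 2 and 3 on d17, and 3.18% to 4.67% in the Cav1-null libraries. Transcripts over 55% GC took 26.2% to 26.6% of the reads in C57BL/6J on d15 and 26.7% in replicate 1 of d17, against 17.8% to 20.7% in the Cav1-null libraries. Transcripts under 1000 bases took 2.72% to 2.80% of the reads in C57BL/6J on d15, 3.02% in replicate 1 of d17, and 4.41% to 6.41% in the Cav1-null libraries. The part of these library differences in the results that follow was not tested.

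**Figure D1:**
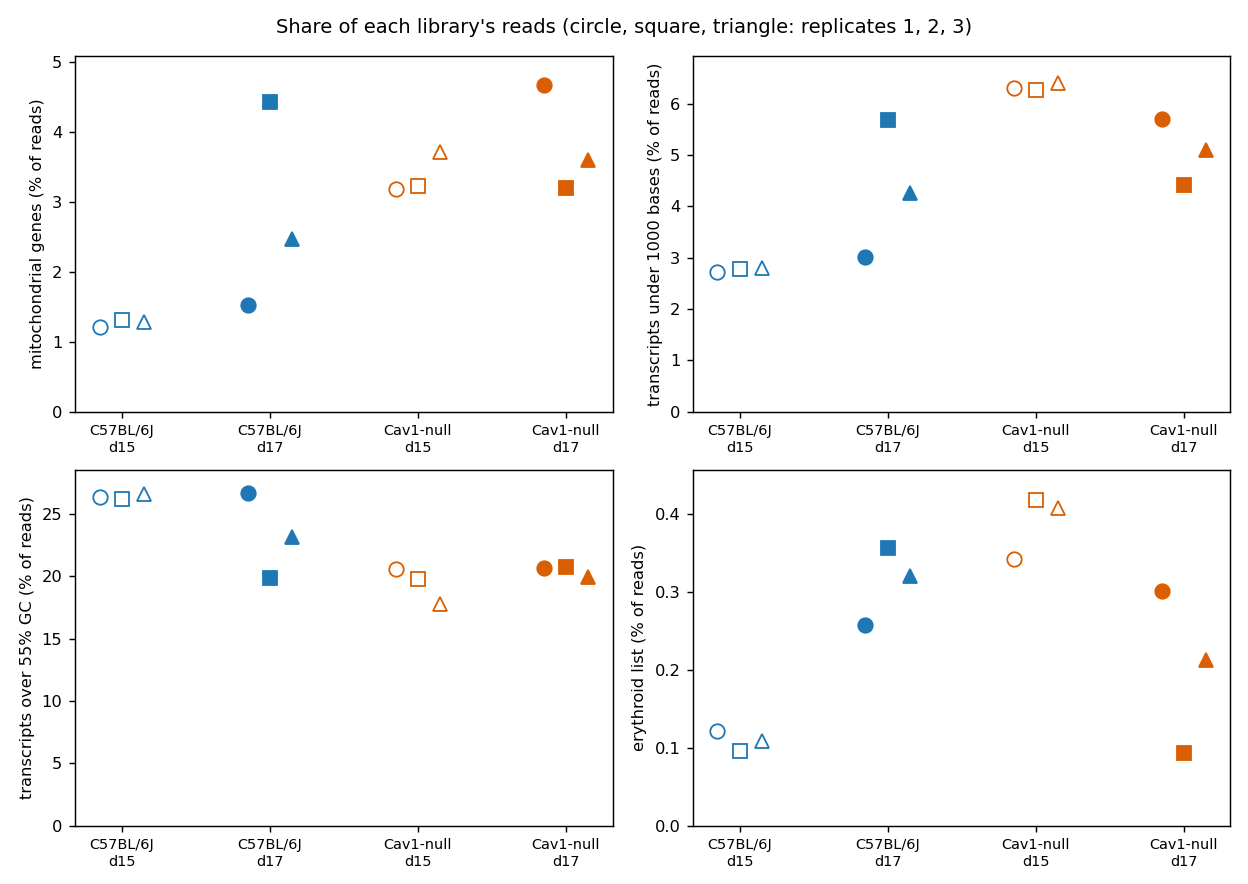
Percent of each library's reads on mitochondrial genes, on transcripts under 1000 bases, on transcripts over 55% GC and on the erythroid list (y axes, from 0) in the 4 groups (x axis). Each symbol is 1 library, with circle, square and triangle for replicates 1, 2 and 3. The C57BL/6J d15 libraries and C57BL/6J d17 replicate 1 have the lowest mitochondrial shares (1.21% to 1.53%), and C57BL/6J d17 replicate 2 (4.43%) lies among the Cav1-null libraries.

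Of the 54 genes, 7 had a positive interaction value and 47 a negative one, in a quasi-likelihood test of edgeR with Benjamini-Hochberg adjustment over all genes tested (adjusted p between 0.0173 and 0.0494). The 7 are 0.0327% and the 47 are 0.219% of the genes tested. Without adjustment 4683 genes had a p under 0.05, and the median interaction value of all genes tested was -0.05. The split of the calls moved with the scaling, being 15 positive to 38 negative with relative log expression size factors and 14 to 46 with upper-quartile factors. The median of all genes moved by more than 0.1 only with library sizes alone, where it was -0.15, and the calls were then 14 to 117. Each of the 54 genes kept its sign under these scalings.

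The number of genes called rested on single libraries. Without C57BL/6J d17 replicate 1 the test called 5792 genes (3742 positive and 2050 negative, 26.1% of 22227 tested), and all 54 genes were among them. Without C57BL/6J d17 replicate 2 it called 105 genes, 52 of the 54 included, and without C57BL/6J d17 replicate 3 only 10. Leaving out C57BL/6J d15 replicates 1, 2 and 3 in turn gave 3, 22 and 26 genes, and leaving out Cav1-null d17 replicates 1 and 2 gave 13 and 15. No gene was called without Cav1-null d15 replicate 1, without Cav1-null d15 replicate 3 or without Cav1-null d17 replicate 3, although 4166, 3613 and 4120 genes had an unadjusted p under 0.05 there, and 24 were called without Cav1-null d15 replicate 2. DESeq2 on the 12 libraries called 1436 genes, among them the 54. The excess of negative values varied among settings that called more genes, with 285 positive to 964 negative in edgeR's likelihood ratio test, 623 to 813 in DESeq2, 3422 to 3605 with limma voom and sample weights and 543 to 467 without a filter on low counts.

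**Figure D2:**
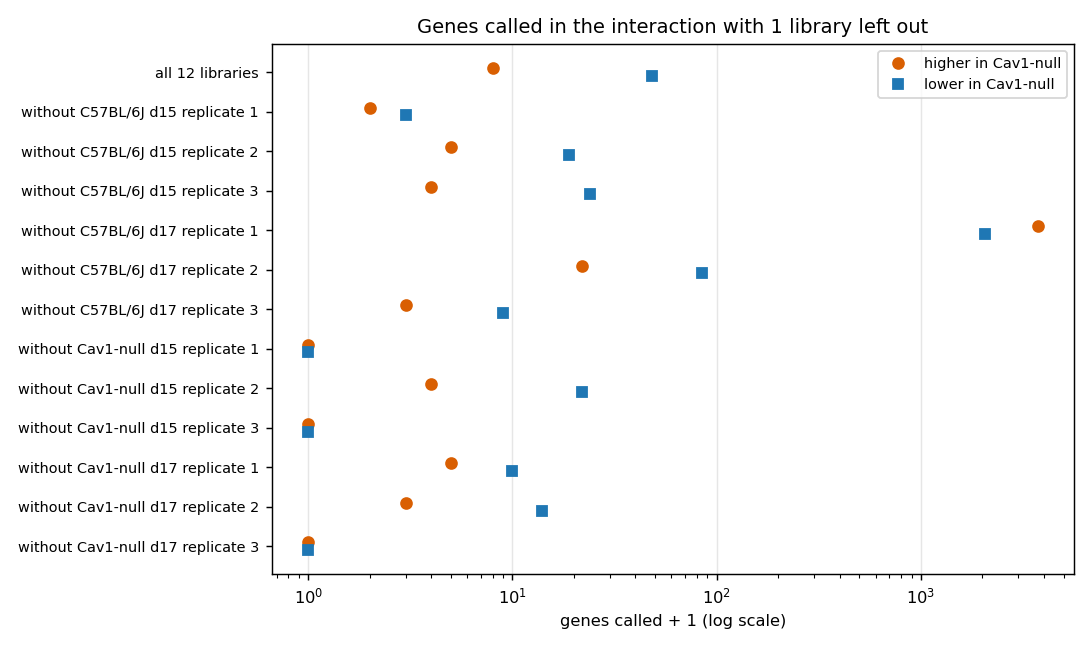
Number of genes called in the interaction plus 1 (x axis, log scale) with all 12 libraries and with each library left out in turn (y axis). Circles are genes with a positive value (larger rise or smaller fall in Cav1-null mice) and squares genes with a negative one. Leaving out C57BL/6J d17 replicate 1 raises the calls to 3742 and 2050, and the other fits stay at or under 105 genes in all.

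In nearly all of these genes the strains were further apart on d15 than on d17. The Cav1-null libraries of d15 differed from the C57BL/6J libraries of d15 in all 54 genes (48.1% of all genes tested passed that test) and in none of the 54 on d17 (0.098% of all genes passed, 0.028% with a higher level in Cav1-null mice). The d15 libraries of the strains were apart without overlap in all 54 genes (63.1% of all genes), and those of d17 did not overlap in 20 (12.6%). The interaction value is the d17 difference minus the d15 difference, so these counts describe the shape of the change and are no separate evidence for it. In 53 of the 54 genes the strain difference was larger on d15 than on d17, as it was in 17201 of all 21431 genes. The median absolute strain difference of the 54 genes was 2.26 on d15 and 0.26 on d17 (log2), against 0.56 and 0.25 over all genes. Without C57BL/6J d17 replicate 2, however, 5908 genes differed between the strains on d17 in place of 21.

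The late change of each strain enters the interaction value, so the counts of these genes by strain describe them and are no separate evidence. The late change passed the test in C57BL/6J for 51 of the 54 genes (29.7% of all genes did) and in Cav1-null for 14 (11.4% of all genes). The libraries of d15 and d17 did not overlap for 52 of the 54 genes in C57BL/6J (40.4% of all genes) and for 34 in Cav1-null (40.5%). The late change was larger in C57BL/6J for 46 of the 54 genes and for 13472 of all genes, and the fitted changes of the strains had opposite signs for 43 of the 54 genes and for 8186 of all genes. For the 47 genes with a negative value the median late change was 2.16 in C57BL/6J and -0.54 in Cav1-null, and for the 7 with a positive value it was -1.10 and 0.09 (log2).

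**Figure D3:**
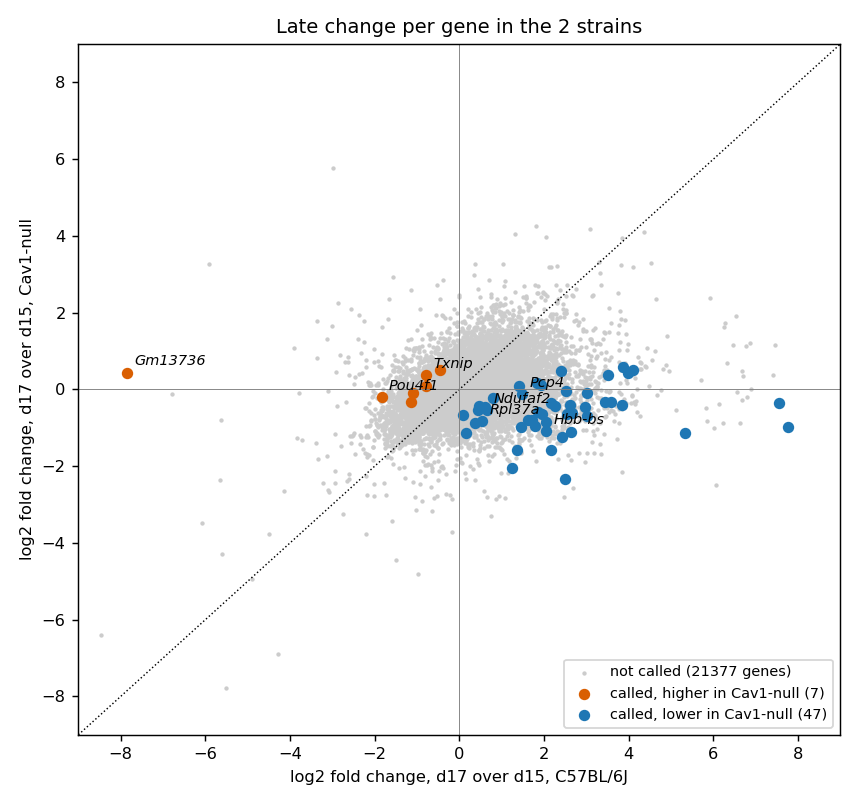
Late log2 fold change (d17 over d15) of each gene tested in C57BL/6J (x axis) and in Cav1-null (y axis), with the line of equal change dotted. Large points are the 54 genes called in the interaction, 7 with a positive value and 47 with a negative one, and small grey points the other genes tested. Of the 54 genes, 43 have fitted changes of opposite sign in the 2 strains.

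Among the 7 genes with a positive value were a pair of transcription factors of developing neurons. Pou4f1 (chr14:104699112-104705504, reverse strand) encodes the POU-domain factor Brn3a of sensory and habenular neurons. It was at 36.3, 45.6 and 53.2 CPM in the C57BL/6J libraries of d15 and at 14.4, 10.2 and 13.4 CPM in those of d17. In Cav1-null mice it was already low, at 11.1, 10.3 and 10.7 CPM on d15 and 9.08, 9.66 and 9.1 CPM on d17. The 3 C57BL/6J libraries of d15 stood above the other 9 libraries, and the interaction value was 1.62 ± 0.22 (SE, adjusted p = 0.0174). Tfap2b (chr1:19279138-19309069, forward strand), encoding the factor AP-2 beta of neural crest, midbrain and cerebellar cells, was at 192, 209 and 193 CPM in C57BL/6J on d15 and 100.3, 85.9 and 84.2 CPM on d17. In Cav1-null mice it was at 105, 101 and 117 CPM and then 79.8, 84.2 and 92.2 CPM. Again the C57BL/6J libraries of d15 were alone at the top, and the interaction value was 0.80 ± 0.15 (SE, adjusted p = 0.0494).

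Lig1 (chr7:13011239-13045350, forward strand), the DNA ligase that joins the Okazaki fragments of the replicating strand, fell in C57BL/6J from 83.9, 76.2 and 76.6 CPM to 48.4, 42.1 and 46.8 CPM. In Cav1-null mice it was at 36.8, 38.6 and 38.6 CPM on d15 and at 38.7, 42.1 and 40.5 CPM on d17, a late change that did not pass the test (adjusted p = 0.593). The interaction value was 0.88 ± 0.13 (SE, adjusted p = 0.0201), with the reservation that an exon of Zswim9 lies on the opposite strand of part of the gene. Txnip (chr3:96465267-96469201, forward strand), which binds thioredoxin and restrains glucose uptake, was at 65.9, 54.2 and 55.5 CPM in C57BL/6J on d15 and 34.8, 28.1 and 38.2 CPM on d17. In Cav1-null mice the libraries stood at 26.3, 24.1 and 22 CPM and then at 29.5, 34.8 and 29.2 CPM. The groups of each strain did not overlap and lay in opposite order, although only the C57BL/6J change passed the test (-0.80 against 0.37, with adjusted p = 0.00111 and 0.0976), and the interaction value was 1.16 ± 0.19 (SE, adjusted p = 0.0341).

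Mcc, a coiled-coil protein first described as mutated in colorectal cancer, was at 19, 18.4 and 20.4 CPM in C57BL/6J on d15 and 15.6, 13.5 and 13.1 CPM on d17, against 9.62, 9.88 and 9.64 CPM and 12.6, 14.9 and 13.8 CPM in Cav1-null mice. It was the one gene of the 7 that changed in both strains, falling in C57BL/6J (-0.45, adjusted p = 0.0121) and rising in Cav1-null mice (0.50, adjusted p = 0.0165), with an interaction value of 0.96 ± 0.17 (SE, adjusted p = 0.0425). Thsd7a (chr6:12311609-12749439, reverse strand), a membrane protein with thrombospondin repeats, fell in C57BL/6J from 116, 132 and 122 CPM to 71.6, 51.4 and 49.3 CPM. It was at 52.3, 51.8 and 55.5 CPM and 48.6, 53.4 and 48 CPM in Cav1-null mice on the 2 days, and the interaction value was 1.01 ± 0.18 (SE, adjusted p = 0.0494).

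The 7th gene, Gm13736 (GRCm39 chr2:87356489-87356741, forward strand), is a transcribed processed pseudogene of 253 bases, and the largest value of the 7 was its own. It was at 3.91, 3.22 and 3.21 CPM in C57BL/6J on d15 and at 0, 0 and 0.0326 CPM on d17, against 0.0729, 0.0677 and 0.106 CPM and 0.0339, 0.0354 and 0.264 CPM in Cav1-null mice. Only the C57BL/6J libraries of d15 stood above 0.264 CPM. With 369 reads on d15 and 1 read on d17 in C57BL/6J, the scaled ratio of d15 to d17 was 318 (95% counting interval 56.8 to 1.26e+04), and the fitted interaction value of 8.30 (adjusted p = 0.0201) depends on the prior count. The sequence, from the GENCODE M39 transcripts, is shown because the reads that decide the value may belong elsewhere: over 267 aligned positions it matched Srp9, which encodes a subunit of the signal recognition particle, with 0 mismatches, and differed only where Srp9 has 14 bases more. It also matched Gm75786, a long non-coding RNA on chromosome 2, over 101 bases without a mismatch. The capitals mark the 10 bases on each side of that place.
Gm13736: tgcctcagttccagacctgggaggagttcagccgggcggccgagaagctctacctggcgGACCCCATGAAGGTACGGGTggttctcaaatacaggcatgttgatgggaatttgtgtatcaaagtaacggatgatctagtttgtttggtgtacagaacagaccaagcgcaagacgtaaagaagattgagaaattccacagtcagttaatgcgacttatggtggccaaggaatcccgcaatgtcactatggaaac
Reads that do not cross the middle of the capitals are identical in the pseudogene and in Srp9, so the split of reads between them, or with Gm75786, and with it the value of Gm13736, is uncertain.

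**Figure D4:**
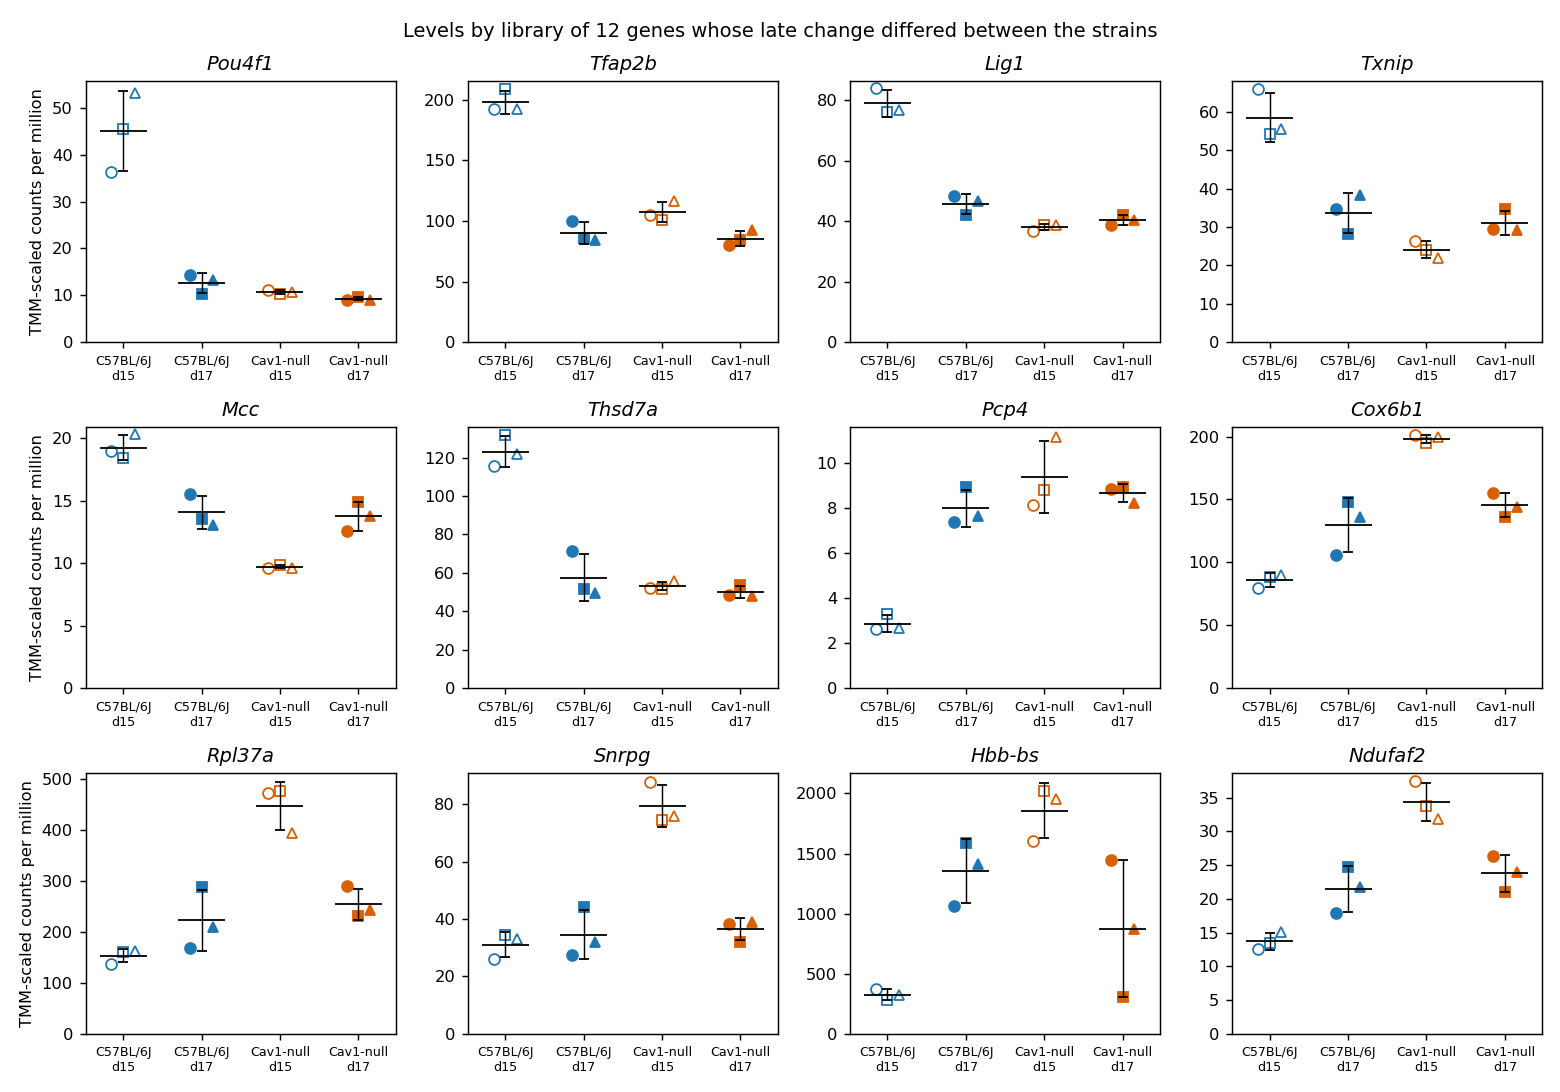
Levels (TMM-scaled CPM, y axes from 0) of 12 protein-coding genes called in the interaction, in the 4 groups of strain and day (x axis). Circle, square and triangle are replicates 1, 2 and 3, open for d15 and filled for d17, and bars give the mean and SD of 3 libraries. In each panel the C57BL/6J libraries of d15 lie entirely above or entirely below the Cav1-null libraries of d15, for example 36.3 to 53.2 against 10.3 to 11.1 CPM for Pou4f1.

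Of the 47 genes with a negative value 13 were protein coding, among them genes of the respiratory chain and 1 gene each of the ribosome and the spliceosome. Cox6b1 (chr7:30316282-30325616, reverse strand) is a subunit of cytochrome c oxidase. It was at 79.3, 88.3 and 89.7 CPM in C57BL/6J on d15 and 106, 148 and 136 CPM on d17, whereas in Cav1-null mice it was at 201, 195 and 199 CPM and then 155, 136 and 144 CPM. It rose in C57BL/6J and fell in Cav1-null mice until the d17 groups overlapped, with an interaction value of -1.05 ± 0.17 (SE, adjusted p = 0.0341). Atp5o (chr16:91720317-91728575, reverse strand), which encodes the oligomycin-sensitivity subunit of the ATP synthase, was at 16.6, 16.4 and 16.6 CPM and 22.2, 24.9 and 21.6 CPM in C57BL/6J and at 34.3, 33.2 and 34 CPM and 26.9, 22.9 and 26 CPM in Cav1-null mice on d15 and d17. Its interaction value was -0.89 ± 0.14 (SE, adjusted p = 0.0341), and it overlaps an exon of Atp5po on the same strand, so its reads may be shared. Ndufaf2 (chr13:108139249-108295189, reverse strand), an assembly factor of complex I, went from 12.5, 13.5 and 15.1 to 17.8, 24.7 and 21.8 CPM in C57BL/6J and from 37.5, 33.7 and 31.9 to 26.4, 21 and 24 CPM in Cav1-null mice. The direction of each strain was that of Cox6b1, and the interaction value was -1.18 ± 0.20 (SE, adjusted p = 0.0341), with an exon of Smim15 overlapping the gene. On reads summed over splice junctions the interaction value of Ndufaf2 was 2.94 (adjusted p = 0.642), of the opposite sign.

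Rpl37a (chr1:72750364-72756093, forward strand) encodes a protein of the large ribosomal subunit. It was at 138, 161 and 161 CPM in C57BL/6J on d15 and 169, 288 and 209.6 CPM on d17, and at 472, 476 and 393 CPM and 289, 231 and 242 CPM in Cav1-null mice (interaction -1.35 ± 0.24, adjusted p = 0.0494). Snrpg (chr6:86348286-86356310, forward strand), a core protein of the spliceosomal small nuclear ribonucleoproteins, was at 26, 34.3 and 32.9 and 27.5, 44.2 and 32 CPM in C57BL/6J, where its late change did not pass the test (adjusted p = 0.507). In Cav1-null mice Snrpg fell from 87.9, 74.6 and 75.8 CPM to 38.3, 32 and 39 CPM (interaction -1.28 ± 0.24, adjusted p = 0.0494). Cav1-null mice were thus the strain that moved for this gene, and the d17 groups overlapped. The list of 54 spliceosome genes had a median of -0.01, 28 values below 0 and Snrpg alone called (0.252% of all genes were), and without C57BL/6J d17 replicate 1 it had 18 genes called with a positive and 10 with a negative value (16.8% and 9.22% of all genes). Snhg5, a non-coding host gene of small nucleolar RNAs, had the same form: 34.1, 39.9 and 37 CPM and 36.8, 42.7 and 37.7 CPM in C57BL/6J, and a fall from 60.6, 59.4 and 65.9 to 36.9, 39.5 and 40 CPM in Cav1-null mice (interaction -0.76 ± 0.14, adjusted p = 0.0494).

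The other coding genes with a negative value serve unlike functions. Pcp4 (chr16:96268806-96326997, forward strand), a small calmodulin-binding protein of neurons, was at 2.61, 3.27 and 2.66 CPM in C57BL/6J on d15 and 7.38, 8.93 and 7.62 CPM on d17, and at 8.13, 8.8 and 11.2 CPM and 8.84, 8.92 and 8.21 CPM in Cav1-null mice. Its C57BL/6J libraries of d15 were below the other 9 libraries, which overlapped, and the interaction value was -1.60 ± 0.23 (SE, adjusted p = 0.0233). Mkks, a chaperonin-like protein of the basal body, had an interaction value of -1.02 ± 0.17, adjusted p = 0.0341, Cstb, an inhibitor of lysosomal cathepsins, one of -0.98 ± 0.18, adjusted p = 0.0494, and Tm6sf2, a membrane protein of lipoprotein secretion, one of -1.25 ± 0.22, adjusted p = 0.0425. Cstb rose in C57BL/6J (0.44) and fell in Cav1-null mice (-0.54), Mkks passed the test only in C57BL/6J (0.80) and Tm6sf2 only in Cav1-null mice (-0.88). Exons of the read-through genes Gm56450 and Gm56451 and of Slx4ip overlap Mkks, and an exon of Gm49948 overlaps Pcp4.

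Markers of red blood cells were also among the genes with a negative value. Hbb-bs (chr7:103475730-103482989, reverse strand), an adult beta globin, was at 374, 278 and 326 CPM in C57BL/6J on d15 and at 1066, 1586 and 1416 CPM on d17. In Cav1-null mice it was at 1601, 2022 and 1951 CPM on d15 and 1449.6, 303 and 872 CPM on d17, with a wide spread on the later day. It rose in C57BL/6J (2.05, adjusted p = 0.00273), and the interaction value was -3.14 ± 0.55 (SE, adjusted p = 0.0433). Hbb-bt, its neighbour, was at 142, 111 and 123 and 246, 392 and 332 CPM in C57BL/6J and at 570.5, 695 and 686 and 337, 80.5 and 234 CPM in Cav1-null mice (interaction -2.95 ± 0.52, adjusted p = 0.0433). The 2 genes are near-identical copies, so the counting may split their reads. Cav1-null d17 replicate 2 was the lowest library of its group for both genes, and without it the interaction value of Hbb-bs was -2.73 and the interaction value of Hbb-bt -2.55, each still called (adjusted p = 0.019 and 0.019). Each gene was called in only 4 of the 12 fits with a library left out.

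Of the erythroid list, 18 of 22 genes were tested, 3 passed with a negative value, the beta globins among them, and none with a positive one (0.219% and 0.0327% of all genes), and the median was -0.52. Hba-a1, Hba-a2 and Alas2, the first enzyme of heme synthesis in red cells, had values of -2.09, -2.57 and -2.09 that missed the threshold (adjusted p = 0.062, 0.0654 and 0.0611). The embryonic globin Hbb-y had a value of the opposite sign, 2.06 (adjusted p = 0.0607). Hbb-y fell in both strains, by 8.47 in C57BL/6J and by 6.41 in Cav1-null mice (log2). The list summed to 1057 to 1293 CPM in C57BL/6J on d15 and 2730 to 3308 CPM on d17, and to 3358 to 4123 CPM and 894.6 to 2933 CPM in Cav1-null mice. In whole brain, more red cells and more RNA per red cell cannot be told apart, and the part of blood left in the tissue was not tested.

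Most of the genes with a negative value were not protein coding. Of the 54 genes 25 carry the annotation TEC (a transcript to be experimentally checked), which is 46.3% against 7.10% of all genes tested, and 7 are long non-coding RNAs, which is 12.96% against 13.01% of all genes tested. By the GENCODE M39 annotation, 31 of the 54 genes lie wholly inside introns of protein-coding genes, 25 of them on the strand of the host gene and 6 on the other strand. All 31 had a negative value, between -8.73 and -1.81 with a median of -3.28. Of all 2227 genes tested that lie only in such introns, 1.39% passed, 1847 had a value below 0, and the median was -0.90, against 0.252% passed, 11462 of 21431 below 0 and a median of -0.05 over all genes. The group means of the 31 genes had a median of 0.28 CPM in C57BL/6J on d15 and 1.75 CPM on d17, and 1.74 CPM and 1.19 CPM in Cav1-null mice. They are thus weakly measured genes, since 1 CPM stood for 27.4 to 37.6 reads. Reads of an unspliced host transcript would fall on the same bases, and whether the counting used strand is not given in the sources used here, so that host and intronic gene cannot be told apart.

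The hosts include genes of neuronal adhesion, synapses and signaling, and several hold more than 1 of these genes. Ctnna2, the neuronal alpha catenin, holds 4 (Gm44286, Gm44235, Gm44438 and 6330415B21Rik), and Auts2, Adgrb3 and Frmd4a hold 2 each. The host genes themselves did not pass the test. Of the 25 hosts 24 were tested under their own symbol and none was called, their values lay between -0.67 and 0.82 with a median of 0.40, and 19 were above 0. On d15 15 of the 24 hosts were lower in Cav1-null mice (23.9% of all genes were) and 3 were higher (24.2%). The 31 genes inside them were all higher on d15, but that difference enters the value they were called for, so nothing is read from the contrast.

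The smallest p of all belonged to 2900027M19Rik (chr8:9735829-9740276, in an intron of Nalf1). It was at 0.346, 0.753 and 0.695 CPM in C57BL/6J on d15 and at 3.93, 3.28 and 4.17 CPM on d17, and at 4.01, 3.65 and 3.99 CPM and 2.07, 2.94 and 2.6 CPM in Cav1-null mice. The d15 group of C57BL/6J lay below the other 9 libraries, and the interaction value was -3.28 ± 0.37 (SE, adjusted p = 0.0173). Gm5415 (chr1:32582767-32586375), annotated as protein coding and lying in an intron of Khdrbs2 on the other strand, was at 1.81, 1.04 and 1.36 and 3.66, 4.69 and 4.66 CPM in C57BL/6J and at 6.01, 7.78 and 7.31 and 3.76, 3.86 and 4.55 CPM in Cav1-null mice. It rose in the former (1.62) and fell in the latter (-0.79), with an interaction value of -2.41 ± 0.31 (SE, adjusted p = 0.0173). Gm37333, in Nav1, was at 0.24, 0.232 and 0.376 CPM and then 2.73, 2.09 and 2.15 CPM in C57BL/6J and at 2.44, 1.79 and 2.19 CPM and 1.56, 2.3 and 2.18 CPM in Cav1-null mice (interaction -3.12 ± 0.39, adjusted p = 0.0173). Gm47026, in Grip1, was at 0.213, 0.261 and 0.232 CPM and 1.4, 1.09 and 1.95 CPM in C57BL/6J, and at 0.984, 1.42 and 1.34 CPM and 0.576, 0.743 and 0.428 CPM in Cav1-null mice (interaction -3.74 ± 0.49, adjusted p = 0.0174). For both genes the C57BL/6J libraries of d15 were below all others.

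Gm34245, on the opposite strand in an intron of the neurotrophin receptor gene Ntrk2, had no read in the C57BL/6J libraries of d15 and was at 0.615, 1.06 and 0.912 CPM on d17, which is at least 30.9-fold higher against a floor of 3 reads over the d15 group. In Cav1-null mice it was at 1.46, 0.609 and 0.636 CPM and 0.339, 0.495 and 0.527 CPM. 2900064K03Rik, in Kcnip4, likewise had no read in C57BL/6J on d15, and at 1.06, 0.375 and 0.814 CPM it was at least 26.3-fold higher on d17. The fitted interaction values of these 2 genes, -8.73 and -7.90, depend on the prior count, and the median of the 54 values was -2.57 with the fitted values and -2.57 with these genes at their bound. Gm16151, in Aff3, had 1 read in C57BL/6J on d15 and 49 on d17, a scaled ratio of 56.8 (95% counting interval 9.73 to 2.29e+03), with a fitted interaction value of -6.46. On junction reads the interaction value of Gm16151 had the opposite sign, 0.78 (adjusted p = 0.593).

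Other genes of this kind had the same form at low levels. Gm38120, in Ncoa2, was at 0.639, 0.696 and 0.521 CPM and 2.73, 2.06 and 1.92 CPM in C57BL/6J and at 2.48, 2.74 and 3.36 CPM and 1.93, 2.02 and 1.78 CPM in Cav1-null mice (interaction -2.43 ± 0.33, adjusted p = 0.018). In Ctnna2, Gm44286 was at 0.506, 0.638 and 0.405 and 2.05, 2.47 and 1.86 CPM in C57BL/6J, and at 2.48, 1.86 and 2.44 and 1.49, 0.85 and 1.38 CPM in Cav1-null mice (interaction -2.89 ± 0.40, adjusted p = 0.0201). Its neighbour Gm44235 was at 0.426, 0.696 and 0.695 and 1.95, 1.97 and 2.38 CPM, and at 3.5, 1.96 and 4.38 and 2.0, 1.38 and 1.65 CPM, in the same order (interaction -2.76 ± 0.45, adjusted p = 0.0341). In each of these genes the d15 libraries of C57BL/6J were the lowest 3 of the 12. Gm42583, in the potassium channel gene Kcnd2, was at 1.36, 1.28 and 1.1 and 4.17, 5.09 and 5.02 CPM in C57BL/6J and at 4.74, 3.82 and 4.59 and 5.35, 4.32 and 4.61 CPM in Cav1-null mice (interaction -1.81 ± 0.26, adjusted p = 0.0201). Gm42589, in Auts2, was at 0.0532, 0.058 and 0.116 and 0.752, 0.50 and 0.651 CPM against 1.09, 0.812 and 1.13 and 0.678, 0.425 and 0.758 CPM (interaction -3.71 ± 0.59, adjusted p = 0.0341). For Gm37077, in Adgrb3, the values were 0.266, 0.493 and 0.261 and then 2.32, 1.91 and 2.08 CPM in C57BL/6J, and 3.57, 1.69 and 1.98 and then 1.39, 2.16 and 1.88 CPM in Cav1-null mice (interaction -3.03 ± 0.49, adjusted p = 0.0341). The Cav1-null groups of Gm44235, Gm42583 and Gm37077 overlapped between the days.

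The remaining intronic genes are given by their interaction values, each of which passed the test with a negative sign. Among transcripts in genes of synapses and of ion channels and their anchors these were Gm44675 in Dlg2 (-3.12), Gm42973 in Ank2 (-3.78), Gm47472 in Syt1 (-3.18) and Gm42444 in Pclo (-2.53). In genes of cell adhesion and axon guidance they were 6330415B21Rik in Ctnna2 (-2.44), Gm44438 in Ctnna2 (-2.51), Gm36952 in Adgrb3 (-4.25) and Plxna4os2 in Plxna4 (-2.69). In the other hosts they were Gm42992 in Auts2 (-3.74), Gm10862 in Frmd4a (-3.29), Gm2639 in Frmd4a (-3.56), Gm38148 in Xkr4 (-2.55), Gm42854 in Srrm4 (-3.68), Gm40309 in Ube2k (-3.43), Gm37537 in Tnik (-4.82), Gm45088 in Hdgfl3 (-2.59), Gm14021 in Frmd5 (-3.91) and Gm44895 in Luzp2 (-3.59). C130073E24Rik, a long non-coding RNA outside protein-coding genes, was at 2.98, 2.78 and 3.65 CPM in C57BL/6J on d15 and 8.79, 8.53 and 7.75 CPM on d17, and at 8.57, 6.67 and 8.16 and 9.11, 7.68 and 7.91 CPM in Cav1-null mice (interaction -1.33 ± 0.23, adjusted p = 0.0425).

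Another pair of non-coding genes lies in the imprinted Dlk1-Dio3 region of chromosome 12, where maternal RNAs with many small RNAs are transcribed in a row. Gm37899 (chr12:109635303-109644019) and B830012L14Rik (chr12:109642711-109680989) overlap each other on the forward strand between Rian and Mirg. Gm37899 was at 1.7, 2.12 and 1.74 CPM in C57BL/6J on d15 and 9.57, 11.2 and 8.6 CPM on d17, and at 9.26, 7.17 and 7.6 CPM and 10.6, 12.1 and 10.6 CPM in Cav1-null mice (interaction -1.93 ± 0.23, adjusted p = 0.0173). B830012L14Rik was at 2.26, 1.97 and 2.69 and 7.97, 9.31 and 7.62 CPM, and at 9.55, 7.0 and 6.82 and 8.23, 9.95 and 7.98 CPM (interaction -1.68 ± 0.26, adjusted p = 0.0341). In both genes the C57BL/6J libraries of d15 were alone at the bottom. The better known genes of the region, looked up after these values were seen, did not pass the test: the interaction values were -0.24 ± 0.29, adjusted p = 0.646 for Meg3, -0.71 ± 0.26, adjusted p = 0.157 for Rian and -0.62 ± 0.16, adjusted p = 0.0762 for Mirg. Rtl1 was at -0.33 ± 0.20, adjusted p = 0.331, while the genes that name the region had values of the other sign, 1.21 ± 0.43, adjusted p = 0.146 for Dlk1 and 0.59 ± 0.73, adjusted p = 0.649 for Dio3. Dlk1 fell in C57BL/6J (-1.99, adjusted p = 0.000789), and the late change of Dio3 there was -0.90 (adjusted p = 0.19). Meg3, Rian and Mirg all rose in C57BL/6J, by 0.98, 1.14 and 0.69, and of the 3 Meg3 also rose in Cav1-null mice, by 0.74 (log2).

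Cav1 was the one member of the caveolin and cavin list whose loss defines a strain, and no member passed the interaction test. Of the 9 genes 8 were tested, with a median of 0.44, and Cav1 with its few reads in Cav1-null mice was among them. Cav2, the partner that needs Cav1 for transport to the surface, was at 8.25, 5.45 and 7.44 CPM in C57BL/6J on d15 and 10.7, 24.6 and 15.6 CPM on d17, and at 15.4, 19.6 and 24.9 and 32.5, 21.4 and 28.5 CPM in Cav1-null mice (interaction -0.80 ± 0.40, adjusted p = 0.253). Cavin1, the main cytosolic coat protein of caveolae, was at 61.7, 27.2 and 34.1 CPM and 40.1, 8.96 and 23.7 CPM in C57BL/6J, a group with wide spread, and at 7.69, 10.5 and 6.96 and 8.95, 8.39 and 8.77 CPM in Cav1-null mice (interaction 0.81 ± 0.60, adjusted p = 0.427). Ehd2, an ATPase at the neck of caveolae, had a value of 0.69, Cavin2 one of 0.50 and Pacsin2, a membrane-bending protein, one of 0.39 (adjusted p = 0.507, 0.301 and 0.241). Cavin3 at 0.07 and Cavin4 at -0.06 were near 0 and changed sign under several other settings.

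Gene lists of pathways and cell types were read by their counts and medians beside those of all genes. Of 901 listed genes tested, 7 passed, all with a negative value, where 0.252% of all genes passed and 0.219% with a negative value, and the median was 0.08, against -0.05 over all genes. The most negative medians belonged to the lists of the ribosome and of mitochondria. The 81 cytosolic ribosomal protein genes had a median of -0.96, all 81 values were below 0, 77 had an unadjusted p under 0.05, and Rpl37a alone passed the test. Over all 21431 genes 11462 values were below 0, 4683 had an unadjusted p under 0.05 and 0.219% passed with a negative value. Their summed level was 19566 to 20056 CPM in C57BL/6J on d15 and 18833 to 35820.5 CPM on d17, and 48556 to 51090.0 CPM and 30143 to 40971 CPM in Cav1-null mice. On d15 80 of the 81 genes were higher in Cav1-null mice (24.2% of all genes were), and none of the 81 differed on d17. The C57BL/6J group of d17 overlapped that of d15 through replicate 1, and without that library 77 of the 81 genes passed with a negative value (9.22% of all genes did).

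The 74 nuclear genes of the respiratory chain had a median of -0.77, with Cox6b1 and Atp5o called (0.252% of all genes were, 0.219% with a negative value) and 69 values below 0 (11462 of all 21431 genes). The 10 mitochondrially encoded transcripts had a median of -0.91 and none was called, mt-Nd1 having the smallest p (interaction -0.95 ± 0.34, adjusted p = 0.143). These medians moved when trends with transcript GC content and length were removed from each library, to -0.66 for ribosomal proteins, to -0.47 for nuclear respiratory genes and to 0.03 for mitochondrially encoded transcripts. Over protein-coding genes the median interaction value ran with length, from -0.59 for transcripts of 500 to 1000 bases to 0.31 for those over 8000 bases. The 52 genes with transcripts under 500 bases had a median of -0.53. With GC content the median ran from -0.43 under 40% to 0.23 at 55% and over. Removing both trends left 47 genes called, 27 of them among the 54, and 10 of the 47 had a positive value (0.0467% of all genes). Their part in the lists' values was not tested further. Replication-dependent histones, with a median of -0.69 and 27 of 42 tested, had no gene called, H4c9 having the smallest p (-0.94 ± 0.32, adjusted p = 0.135). The whole histone list summed to only 19.3 to 47.1 CPM in these poly(A) libraries, so its members were weakly measured.

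**Figure D5:**
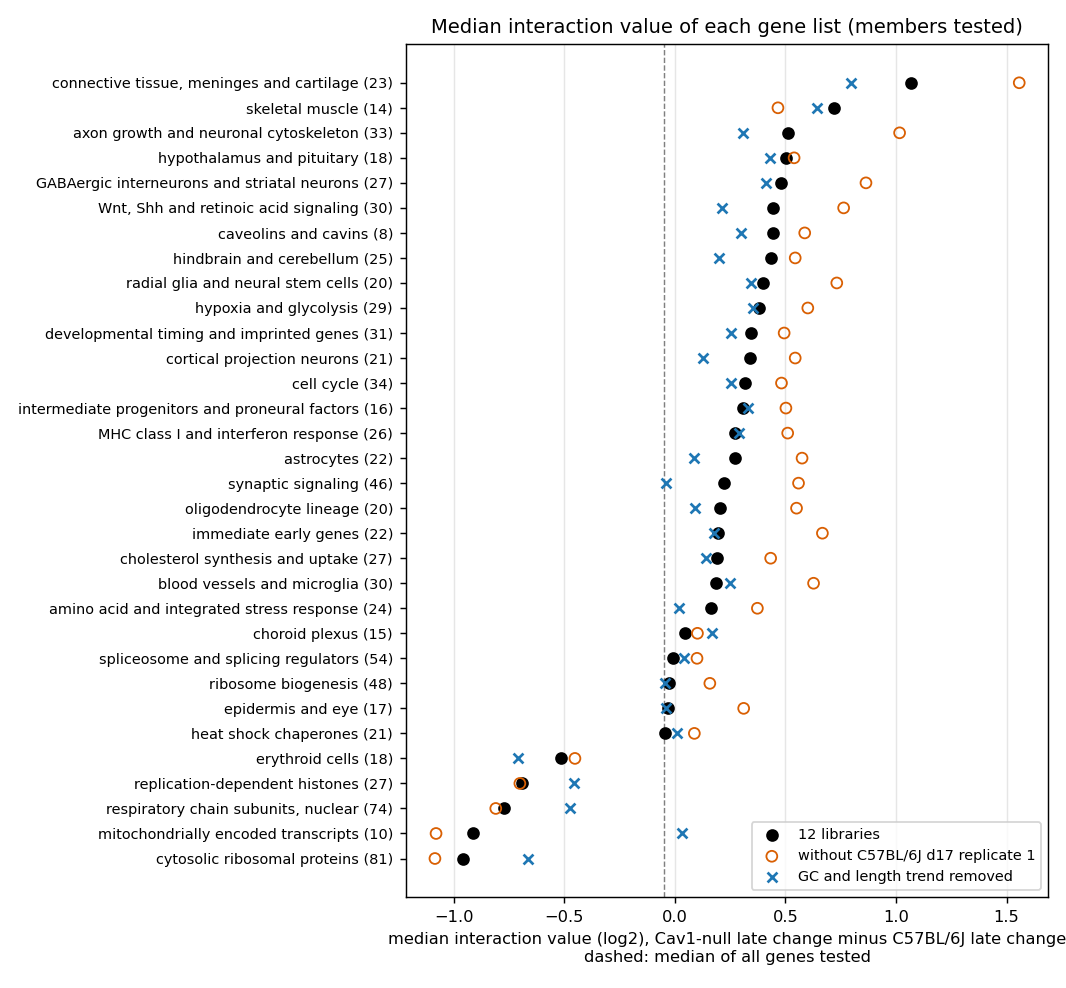
Median interaction value (log2, x axis) of each gene list (y axis, number of members tested in brackets) with the 12 libraries (filled), without C57BL/6J d17 replicate 1 (open) and with GC and length trends removed (crosses). The dashed line is the median of all genes tested (-0.05). Cytosolic ribosomal proteins (-0.96), mitochondrially encoded transcripts (-0.91) and nuclear respiratory chain genes (-0.77) lie lowest, and the mitochondrially encoded list moves to 0.03 when the trends are removed.

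Lists of brain cell types had medians above 0 and no gene called. Radial glia and neural stem cells had a median of 0.40, intermediate progenitors and proneural factors 0.31, the cell cycle 0.32, cortical projection neurons 0.34, GABAergic interneurons and striatal neurons 0.48, and axon growth and the neuronal cytoskeleton 0.51. Their members with the smallest p were Gli3 (1.17, adjusted p = 0.062), Dll3 (0.86, adjusted p = 0.0976), Plk1 (0.90, adjusted p = 0.0885), Sox5 (0.50, adjusted p = 0.15), Ebf1 (0.83, adjusted p = 0.102) and Dcc (1.16, adjusted p = 0.0691). With GC and length trends removed the median of synaptic signaling turned to -0.04, and those of cortical projection neurons, astrocytes and the oligodendrocyte lineage were 0.12, 0.09 and 0.09. With all 12 libraries synaptic signaling (0.22), astrocytes (0.27) and the oligodendrocyte lineage (0.21) lay closer to 0, with Slc1a2 (0.70, adjusted p = 0.0953) and Mbp (0.67, adjusted p = 0.0654) as the members of smallest p in the last 2 lists. This order did not hold without C57BL/6J d17 replicate 1, where these medians were 0.559, 0.575 and 0.55. Cortical projection neurons were then at 0.544, intermediate progenitors at 0.502 and the cell cycle at 0.482. Cell cycle genes fell in both strains, 32 of 34 in C57BL/6J (13.8% of all genes fell) and 29 of 34 in Cav1-null mice (5.45%). Of the astrocyte list 10 of 22 genes rose in C57BL/6J (15.8% of all genes rose) and 12 in Cav1-null mice (5.91%). When C57BL/6J d17 replicate 1 was left out, 12 of 20 radial glia genes, 23 of 33 axon growth genes and 23 of 46 synaptic genes passed with a positive value (16.8% of all genes did). In the same order, 2, 1 and 4 genes passed with a negative value (9.22% of all genes did).

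Among lists of other tissues a dissection could carry along, connective tissue, meninges and cartilage had the highest median, 1.07, with no gene called. Its summed level was 723.9 to 6216 CPM in C57BL/6J on d15 and 329.3 to 1579 CPM on d17, against 276.8 to 433.6 CPM in the Cav1-null libraries of both days. Skeletal muscle had a median of 0.72 over 14 genes at summed levels of 78.3 to 160.7 CPM, hindbrain and cerebellum one of 0.43, hypothalamus and pituitary one of 0.50, blood vessels and microglia one of 0.19, choroid plexus one of 0.04 and epidermis and eye one of -0.03. The members with the smallest p were Sox9 (1.19, adjusted p = 0.119), Myh8 (2.22, adjusted p = 0.144), Calb1 (-0.58, adjusted p = 0.0953), Pitx1 (1.61, adjusted p = 0.115), Aif1 (-1.54, adjusted p = 0.0755), Ttr (-0.73, adjusted p = 0.082) and Krt1 (-1.005, adjusted p = 0.136) in that order of lists. Sox9 was at 94.7, 98.2 and 92.3 CPM in C57BL/6J on d15, so it did not follow the summed level of the connective tissue list there. None of these lists had a gene called, and their part in the 54 genes was not tested. In signaling and metabolism the smallest p belonged to Tcf7l2 (1.02, adjusted p = 0.0785), Grb10 (1.03, adjusted p = 0.0714), Hk2 (1.33, adjusted p = 0.108), Msmo1 (-0.59, adjusted p = 0.0735) and Psat1 (0.53, adjusted p = 0.118), genes of Wnt signaling, imprinting, glycolysis, cholesterol synthesis and serine synthesis, and among stress and RNA genes to Jun (0.98, adjusted p = 0.163), Hspe1 (-1.01, adjusted p = 0.0828) and Nop10 (-0.93, adjusted p = 0.0607). None passed the threshold.

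The fit without C57BL/6J d17 replicate 1 was read for the genes it brought in. Among the 5 with a positive value and the smallest p were Dync1h1, the heavy chain of cytoplasmic dynein, the basement membrane collagens Col4a1 and Col4a2, and the corepressor gene Spen. Dync1h1 was at 1155, 1189.9 and 1175 CPM in C57BL/6J on d15 and at 1044, 455 and 467 CPM on d17, and at 360.2, 350.3 and 348 CPM and 418, 420.2 and 422 CPM in Cav1-null mice. Replicate 1 lay near the d15 level and the other C57BL/6J libraries of d17 near the Cav1-null level. The value of Dync1h1 was 1.09 (adjusted p = 0.115) with replicate 1 and 1.69 (adjusted p = 1.12e-05) without it. The genes were picked because they newly passed without replicate 1, so its standing apart in them follows from that choice. Col4a2 was at 284, 186 and 247 and 238, 50.2 and 65 CPM in C57BL/6J, and at 23.3, 23.7 and 20.4 and 46.9, 49.4 and 46.1 CPM in Cav1-null mice, with values of 2.10 and 3.23. Col4a1 (1.94 and 3.20) and Spen (1.12 and 1.74) had the same placing of replicate 1, which the choice of genes favours and which is no separate evidence.

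On the negative side these were Gm12191, a transcribed processed pseudogene in an intron of Cnot6, Psma5 of the proteasome, the small nuclear ribonucleoprotein genes Lsm3 and Snrpd1, and Txn1, thioredoxin. Gm12191 was at 0.308, 22.5 and 14.4 CPM in the C57BL/6J libraries of d17 and at most 0.778 CPM in the other 9 libraries, so that its value of -6.14 came from replicates 2 and 3. Snrpd1 was at 60.9, 63.2 and 58.9 and 54.6, 85.9 and 70.8 CPM in C57BL/6J and at 135, 140.3 and 139 and 84.7, 76.8 and 81.1 CPM in Cav1-null mice, with -0.98 (adjusted p = 0.0518) with all libraries and -1.04 (adjusted p = 0.000196) without replicate 1. Txn1, whose product is bound by that of Txnip, had values of -0.90 and -0.99, Psma5 of -0.82 and -0.87, and Lsm3 of -1.01 and -1.15.

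The late change in AKR/J mice came from 6 libraries that the interaction did not use. Of the 54 genes 49 were tested there and 14 passed, 12 that rose and 2 that fell, where 22.1% of all genes passed (2319 rose and 2076 fell of the 19674 tested in both fits), and the median over the 49 was 0.34 (log2). The share that passed is near that of all genes, so the values are given as a description. Pou4f1 (-1.60) and Lig1 (-0.47) fell in AKR/J. Among the genes that rose were Hbb-bs (3.18), Hbb-bt (2.41), Pcp4 (1.37), Ndufaf2 (0.59), Cox6b1 (0.51), Atp5o (0.35), Gm5415 (1.21), Gm10862 (3.62), Gm36952 (2.23), Gm47472 (1.45) and Gm44675 (1.04). The median rested on single AKR/J libraries, being 0.18 without d15 replicate 3, 0.23 without d17 replicate 2 and 0.52 without d15 replicate 1.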

How the data were processed

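The members and gene lists were chosen with earlier results of these data known. Per the labels and the study's methods, the authors sequenced mRNA of single fetal brains and deposited 1 table of raw read counts per gene. FastQC, cutadapt, fastp, STAR, edgeR and bedtools, with build GRCm39, are named in the submitters' processing notes. The counting tool and its use of strand are not given in the sources used here. Of 55416 genes, 21431 passed filterByExpr. Trimmed mean of M-values factors and edgeR 4.0.16 (R 4.3.3) quasi-likelihood fits of the 12 libraries gave each contrast, with Benjamini-Hochberg adjustment over all genes and a threshold of 0.05. The 12 libraries held 26846313 to 39759702 reads, and intervals on counts cover counting error only. Called genes were named, with values in each library for up to 15 per direction by p and for called list members, in lists without a call the member of smallest p, and up to 5 per direction newly called without C57BL/6J d17 replicate 1. DESeq2 1.42.0, limma 3.58.1, other scalings, filters, thinning, a replicate block, reads deposited as counts per splice junction and each library left out were alternatives. Annotation was GENCODE M39, with matches to transcripts by BLAST+ 2.17.0. A few genes that the rule would name are not reported here. The other fetal brain libraries were used only in the 27-library and AKR/J fits.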

Additional observations from a re-analysis of the deposited data

Results flagged for a closer look

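The late change of 54 genes differed between the strains by a test of that difference, with the quasi-likelihood model of edgeR. The values below are the late log2 fold change in Cav1-null minus that in C57BL/6J.

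The positive values were those of Pou4f1 (1.62), Gm13736 (8.30), Lig1 (0.88), Txnip (1.16), Mcc (0.96), Thsd7a (1.01) and Tfap2b (0.80). Negative values among protein-coding genes included those of Gm5415 (-2.41), Pcp4 (-1.60), Atp5o (-0.89), Cox6b1 (-1.05), Mkks (-1.02), Ndufaf2 (-1.18), Tm6sf2 (-1.25), Hbb-bt (-2.95), Hbb-bs (-3.14), Rpl37a (-1.35), Cstb (-0.98) and Snrpg (-1.28). Negative values among non-coding genes and pseudogenes inside introns of coding genes were those of 2900027M19Rik (-3.28), Gm37333 (-3.12), Gm47026 (-3.74), Gm34245 (-8.73), Gm38120 (-2.43), Gm44286 (-2.89), Gm42583 (-1.81), Gm42589 (-3.71), Gm37077 (-3.03), Gm44235 (-2.76), Gm42992 (-3.74), Gm42973 (-3.78), Gm10862 (-3.29), 2900064K03Rik (-7.90), Gm16151 (-6.46), Gm2639 (-3.56), Gm44675 (-3.12), Gm38148 (-2.55), Gm44895 (-3.59), Gm42854 (-3.68), 6330415B21Rik (-2.44), Gm40309 (-3.43), Gm37537 (-4.82), Gm47472 (-3.18), Plxna4os2 (-2.69), Gm44438 (-2.51), Gm36952 (-4.25), Gm45088 (-2.59), Gm42444 (-2.53) and Gm14021 (-3.91), and those elsewhere belonged to Gm37899 (-1.93), B830012L14Rik (-1.68), C130073E24Rik (-1.33) and Snhg5 (-0.76). The call of each of the 54 genes was lost without Cav1-null d15 replicate 1, without Cav1-null d15 replicate 3 and without Cav1-null d17 replicate 3, and kept without C57BL/6J d17 replicate 1.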

How the results depend on the processing

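The 54 genes kept their sign in each setting that tested them, except Ndufaf2 (2.94) and Gm16151 (0.78) on junction reads, but the number of calls did not hold. The interaction called 1436 genes with DESeq2, 1249 with edgeR's likelihood ratio test, 108 with robust dispersions, 7027 with limma voom and sample weights, 131 with library sizes alone, 1010 without a filter, 10 with at least 10 reads in every library, 4 with 27 libraries in 1 model, 25 after thinning to the smallest library and 3 on reads summed over splice junctions. In these settings the listed genes called were 149, 145, 11, 465, 15, 144, 0, 0, 2 and 1, in that order (901 listed genes were tested in the main fit). Of all genes tested, 6.7%, 5.83%, 0.504%, 32.8%, 0.611%, 2.61%, 0.0596%, 0.0172%, 0.117% and 0.023% were called, in the same order. Removing GC and length trends, an alternative chosen after seeing the data, left 47 genes. The cause of these differences was not tested.

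The replicate numbers did not pair the libraries (correlations of same-numbered deviations from -0.161 to 0.135). With the replicate block, 0 genes and 0 listed genes were called in the interaction (edgeR, 4366 at an unadjusted p under 0.05), and not every library correlated best with its own number.

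The late change of Cav1-null called 6262 genes with voom, 829 with 27 libraries, 681 at an absolute log2 value of at least 1 and 68 on junctions, and that of C57BL/6J 11571 with voom, 2338 at that value and 605 on junctions. The strain difference on d15 called 4089 genes at that value and 2913 on junctions. On d17 it called 262 genes with DESeq2, 177 with the likelihood ratio test, 6734 with voom, 554 without a filter, 6 with at least 10 reads and 4 on junctions. Of the 54 genes, 33 of 33 tested were further apart on d15 with at least 10 reads, and 15 of 16 on junctions.

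With each library left out in turn, the interaction called 0 to 5792 genes (at most 26.1% of those tested) and 0 to 445 listed genes. The late change called 1086 to 4180 genes in Cav1-null and 4058 to 9390 in C57BL/6J. The strain difference called 7852 to 11567 on d15 and 9 to 5908 on d17. Of the 54 genes 53 were further apart on d15 each time, and the AKR/J median was 0.178 to 0.52.

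Among genes named without a call, signs turned on junctions for Dcc (-0.50), Mbp (-0.24), Pacsin2 (-0.0191) and Gm12191 (1.26), and for mt-Nd1 with GC and length trends removed (0.0394). The interaction value of Cavin3 turned with voom (-0.0116) and library sizes alone (-0.01715), and lay between -0.0908 and 0.315 with libraries left out. The interaction value of Cavin4 turned without a filter (0.0246), with 27 libraries (0.0281), after thinning (0.0256) and with the trends removed (0.0247), and lay between -0.212 and 0.07703 with libraries left out. Of the 54 genes 33 had at least 10 reads in every library, and the values of the others rest on fewer reads in some libraries.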
